A study of Mus musculus with 4 samples.

Results

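The NR4A orphan nuclear receptors are Nr4a1 (Nur77), Nr4a2 (Nurr1) and Nr4a3 (Nor1). Their loci were taken as 3 windows of GRCm39 with round limits, of 70 kb on chromosome 15 for Nr4a1, 60 kb on chromosome 2 for Nr4a2 and 90 kb on chromosome 4 for Nr4a3, and every ATAC-seq peak that overlapped a window was a member. This gave 29 of 57090 peaks: 19 in the Nr4a1 window (Peak_20523 at 101134835 to Peak_20541 ending at 101196689), 4 in the Nr4a2 window (Peak_30141 at 56992582 to Peak_30144 ending at 57014684) and 6 in the Nr4a3 window (Peak_37015 at 48042489 to Peak_37020 ending at 48109323). ATAC-seq uses a transposase that inserts adapters into accessible DNA, so the reads of a peak measure how open that stretch of chromatin was. Monocytes were isolated from flushed bone marrow of femur and mandible of 2-mo-old C57BL/6J mice by removal of other cells on a magnetic column, and 20000 cells went into each library. Replicate 1 of each site came from batch A and replicate 2 from batch B, each batch from 4 pooled mice, and paired values below are in the order of replicate 1 and replicate 2. The labels give CD11b+ cells of male mice, whereas the description of the isolation in the methods gives monocytes from mice of both sexes. Labels and methods thus describe both the cells and the sex differently, and which description holds was not settled here. The word monocytes follows the methods. The labels give no treatment and no genetic change for either group. Because the animals were pooled, the spread between replicates is a spread between pools.

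NR4A receptors bind DNA and regulate transcription without a known hormone ligand. Their genes are immediate-early genes, transcribed within a short time of a stimulus without new protein synthesis, and cAMP signalling through CREB is a known route to all 3. In the monocyte lineage, Nr4a1 is best known as a factor needed by the patrolling Ly6C-low monocytes. The comparison of mandible and femur asks whether the chromatin at these loci was more open in mandibular monocytes.

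The promoters are shown because the CREB route acts through them. The 250 bases before the annotated start of each gene were read from RefSeq on GRCm38.p6, all 3 genes being matched by symbol, at chr15:101266596-101266845 on the plus strand for Nr4a1, chr2:57124004-57124253 on the minus strand for Nr4a2 and chr4:48045055-48045304 on the plus strand for Nr4a3. These positions belong to another build than the peaks and cannot be set against them. Capitals mark the CRE half-site, the letters TGACG on either strand, which read CGTCA on the other strand.
Nr4a1: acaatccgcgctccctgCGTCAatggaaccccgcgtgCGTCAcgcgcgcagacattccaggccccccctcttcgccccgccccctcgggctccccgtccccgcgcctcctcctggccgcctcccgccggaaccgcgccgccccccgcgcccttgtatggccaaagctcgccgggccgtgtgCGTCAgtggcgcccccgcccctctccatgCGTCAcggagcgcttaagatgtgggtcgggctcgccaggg
Nr4a2: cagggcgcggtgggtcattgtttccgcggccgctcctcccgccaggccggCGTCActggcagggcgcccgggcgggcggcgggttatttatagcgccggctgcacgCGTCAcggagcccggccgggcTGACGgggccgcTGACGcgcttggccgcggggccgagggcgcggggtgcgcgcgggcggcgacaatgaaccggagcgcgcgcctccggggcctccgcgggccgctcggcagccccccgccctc
Nr4a3: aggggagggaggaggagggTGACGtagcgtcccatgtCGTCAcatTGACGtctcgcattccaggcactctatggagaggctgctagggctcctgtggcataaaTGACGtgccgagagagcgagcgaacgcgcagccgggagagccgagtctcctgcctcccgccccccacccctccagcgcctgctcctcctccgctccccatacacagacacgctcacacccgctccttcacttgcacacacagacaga
Each of the 3 sequences held 4 CRE half-sites. Over 32851 promoters of the same length, 17.8% held at least 1 such half-site and 0.137% held 4 or more. The Nr4a1 half-sites began 233, 213, 69 and 40 bases before the start, those of Nr4a2 200, 144, 123 and 111 bases before it, and those of Nr4a3 231, 213, 205 and 147 bases before it. The full CRE, TGACGTCA, was in none of the 3 and in 1.55% of all promoters. GC content was 74.4% for Nr4a1, 80% for Nr4a2 and 63.6% for Nr4a3, and its median over all promoters was 52.4%. The promoters behind the shares given here were not matched for GC content, and TGACG itself holds a CG. The GC box, GGGCGG on either strand, occurred 3 times in Nr4a1, 4 times in Nr4a2 and 1 time in Nr4a3, and 32.7% of all promoters held it. The MEF2 motif was found 1 time, in Nr4a2, and in 2.92% of all promoters. The SRF CArG box (1.47% of all promoters), the AP-1 motif TGACTCA or TGAGTCA (4.46%) and the NR4A response element AAAGGTCA, known as NBRE (1.34%), were not among these letters in the 3 sequences. A match of letters is a description and not a binding site.

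The total count in peaks was 44065130 and 75294068 in femur and 31976492 and 27464565 in mandible. Both femur libraries were thus deeper than both mandible libraries, and the part of depth in the differences was not tested. Femur replicate 2, the deepest library, stood apart. Set against the other 3 libraries, its log2 levels deviated with an SD of 0.419 over all peaks, where this SD was 0.232 to 0.318 for each of the others. Some results, such as the window sums and the fold changes of several peaks, are therefore also given without it. Counts of members ranged from 65 to 10700 per library. Levels are given as loess-normalized CPM, read counts scaled to library size after a curve against mean abundance was removed from each library, and accessibility is compared between peaks per kb of peak, since CPM also rises with the length of a peak. RefSeq places Nr4a1 between the coding genes Grasp and Atg101, and Nr4a3 before Stx17, so a window can hold peaks of a neighbouring gene. No genome or annotation of GRCm39 was used here, so no peak could be assigned to a promoter, exon or intron, and marker genes of monocytes and of other cell types, as well as the other immediate-early genes, were not analysed here.

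The 3 windows differed in how much of them was open. In the Nr4a1 window, 19 peaks of 197 to 5709 bp covered 20387 bp, 29.1% of the window. The 4 peaks of the Nr4a2 window covered 5462 bp, 9.1%, and the 6 peaks of the Nr4a3 window covered 4502 bp, 5%. Members were longer than most peaks, with a median length of 695 bp and 364 bp over all peaks. Neighbouring members lay a median of 1636 bp apart, and neighbours over all peaks a median of 7936 bp apart. Each window held 1 pair of peaks longer than 1000 bp with less than 150 bp between them, a pattern found in 58 of 57069 neighbouring pairs over all chromosomes and picked out after the positions were seen. The gap was 137 bp between Peak_20535 and Peak_20536 in the Nr4a1 window, 117 bp between Peak_30142 and Peak_30143 in the Nr4a2 window and 112 bp between Peak_37015 and Peak_37016 in the Nr4a3 window.

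Summed over all peaks of a window, the Nr4a3 window had the highest level per kb of covered peak. Its summed level per kb was 55.4 and 53.7 CPM in femur and 56.2 and 55.9 CPM in mandible. The Nr4a2 window had 33.6 and 29.4 CPM per kb in femur and 30.1 and 33.6 in mandible, and the Nr4a1 window 29.4 and 24.9 in femur and 28.6 and 28.0 in mandible. Every library of the Nr4a3 window lay above every library of the other two windows, whereas the values of the Nr4a2 and Nr4a1 windows overlapped. Within each library, the Nr4a2 window lay above the Nr4a1 window. Single peaks weighed on these levels. Peak_37015 had 110.3 CPM per kb, and the next highest peak of the Nr4a3 window, Peak_37016, had 39.9. The 4 other peaks of that window had 13.3 to 16.9. Peak_20535, at 8.53 CPM per kb, made up 5709 of the 20387 bp covered in the Nr4a1 window. The order of the windows without Peak_37015 or Peak_20535 was not tested, so it is given only for sums over all peaks.

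**Figure D1:**
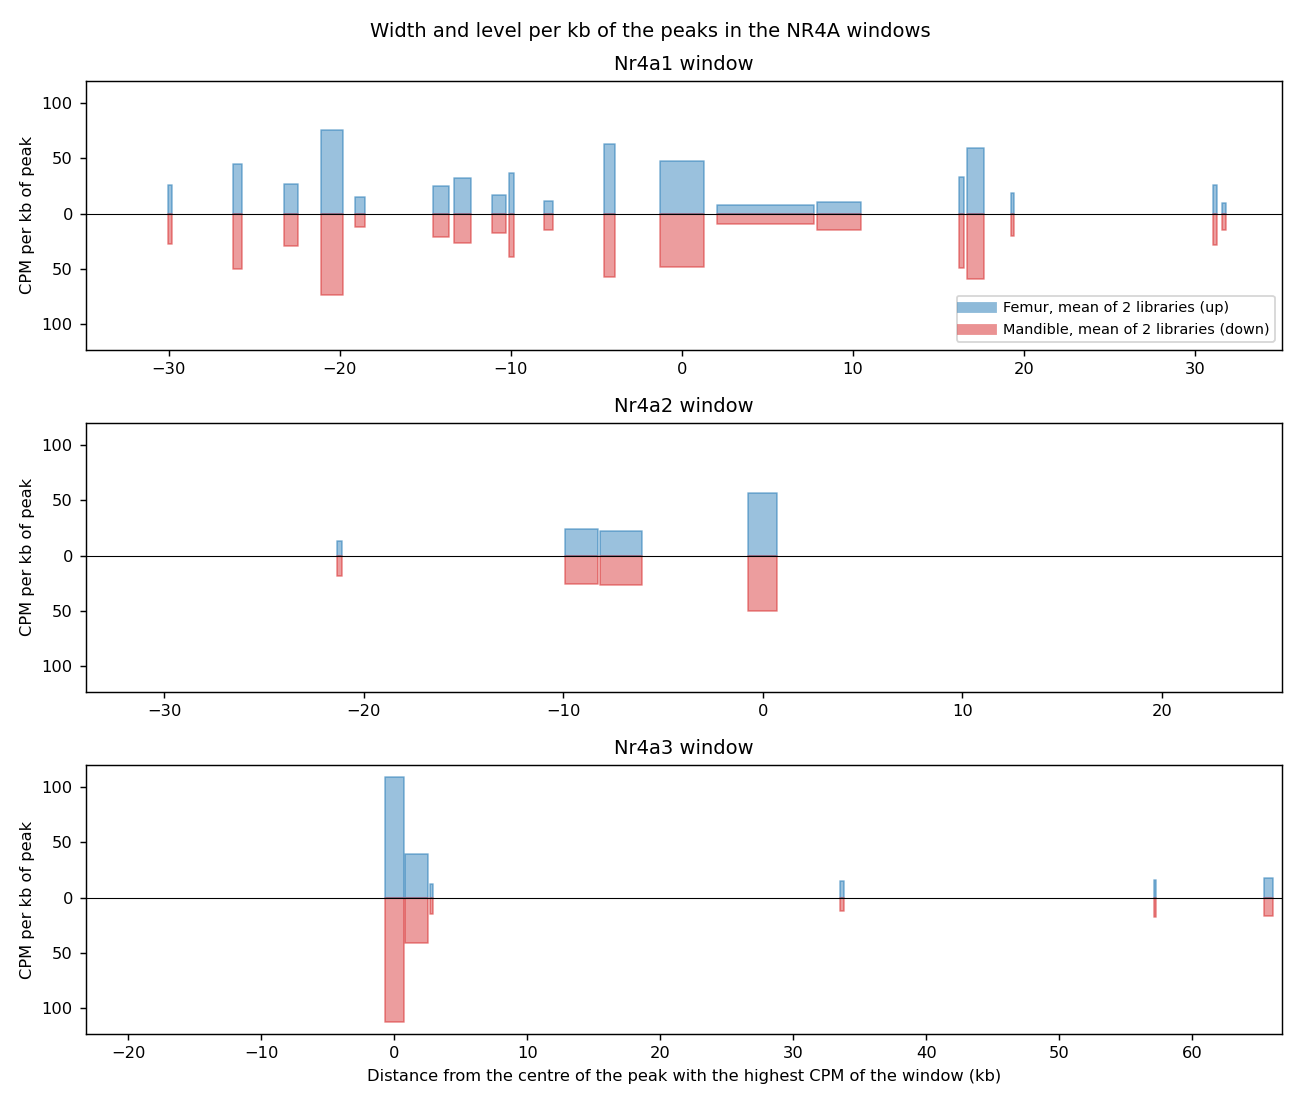
Level per kb of each peak in the 3 windows (vertical axis, loess-normalized CPM per kb, femur mean of 2 libraries upwards and mandible mean of 2 libraries downwards) against distance in kb from the centre of the peak with the highest CPM of the window. The block of Peak_37015 in the Nr4a3 window reaches a mean of 110.3 CPM per kb, whereas the 5709 bp block of Peak_20535 in the Nr4a1 window stays at 8.53.

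In edgeR's quasi-likelihood test of mandible against femur, 0 of the 29 NR4A peaks passed an adjusted p of 0.05, and 0.00701% of all 57090 peaks passed it (4 peaks). In this fit, with skeletal site as the only term, the lowest adjusted p among the members was 0.999994 by edgeR. At an unadjusted p under 0.05 there were 3 members, all higher in mandible and all in the Nr4a1 window, where the background over all peaks was 2.71% in either direction and 1.61% in this direction. These were Peak_20536, Peak_20537 and Peak_20541, and the set changed with the fit. With TMM they were Peak_20536, Peak_30143 of the Nr4a2 window and Peak_37015 of the Nr4a3 window (2.49% of all peaks higher), and with library size alone Peak_20536 (1.17%). With the replicate block they were Peak_20535, Peak_20536 and Peak_20537, where 1265 of all 57090 peaks were higher and 426 lower at this threshold. With DESeq2, 0 members passed either threshold, where 2.81% of all peaks passed the unadjusted one and 0.0491% of the 30526 peaks with an adjusted p passed the other, and 7 members had no adjusted p. With batch as a replicate block, 0 members passed an adjusted p of 0.05 and 0.0998% of all peaks did. The lowest adjusted p among the members was then 0.186 from edgeR, at Peak_20536. For a single peak, the smallest two-sided p of an exact permutation test over 4 libraries is 0.33, so these tests rest on the spread shared across peaks.

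The log2 fold change of mandible over femur was above 0 in 21 of the 29 peaks (72.4%) and in 49.1% of all peaks. The median was 0.07 over the members and -0.0044 over all peaks. Without femur replicate 2, 15 of the 29 were above 0 and the median was 0.0079, beside 0.0078 over all peaks. Both mandible libraries lay above both femur libraries in 7 members, where 13.3% of all peaks did so, and below them in 6 members, where 13.8% of all peaks did so. The difference was positive within batch A and within batch B in 11 members (20.3% of all peaks), negative within both in 6 (22.0% of all peaks) and of opposite sign in 12.

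**Figure D2:**
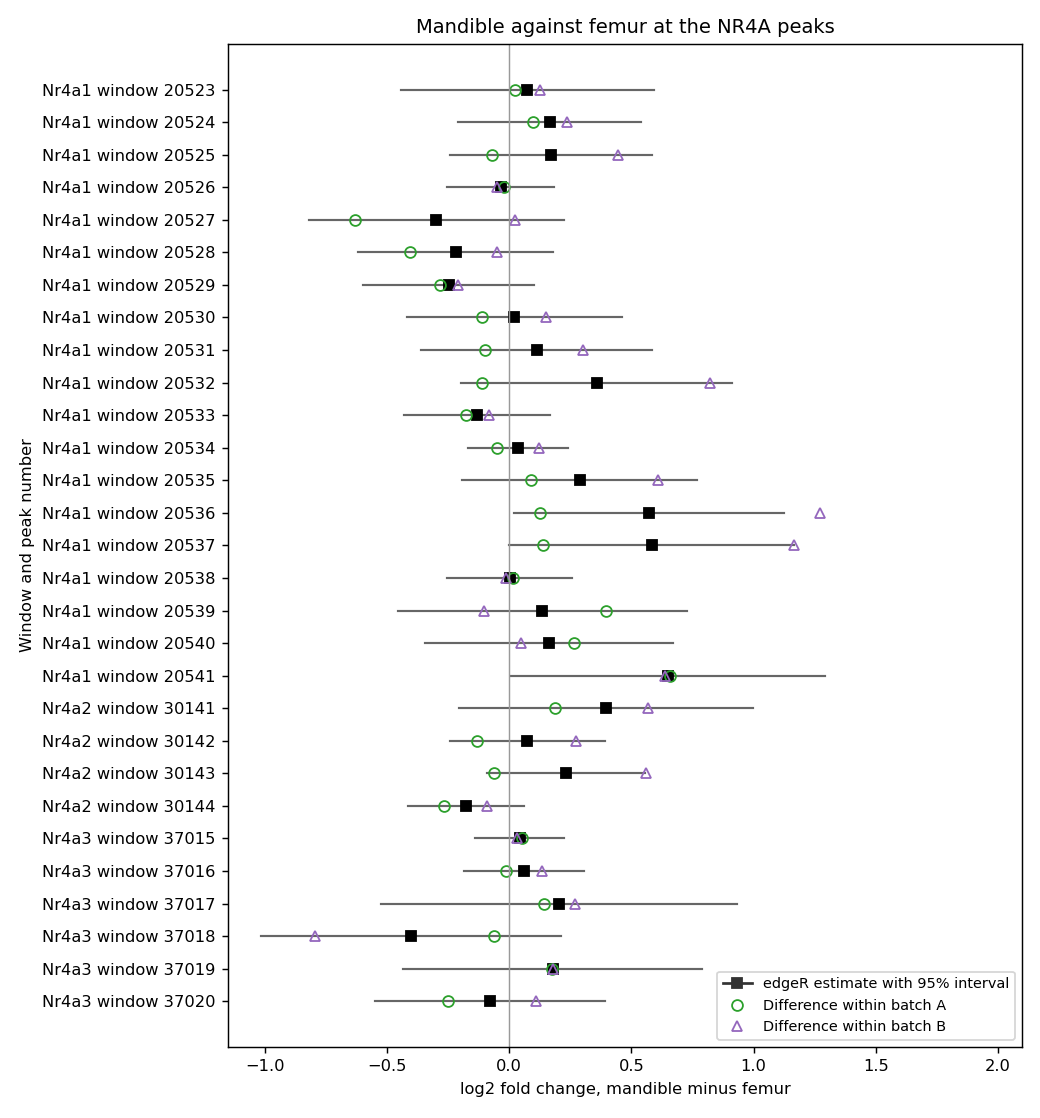
The log2 fold change of mandible minus femur (horizontal axis) for each of the 29 peaks (vertical axis), with black squares for the edgeR estimate and its 95% interval, circles for the difference within batch A and triangles for that within batch B. The intervals of 26 peaks include 0, and those of the other 3 begin within 0.02 of it. In Peak_20536 and Peak_20537 the triangles of batch B lie at 1.27 and 1.17 and the circles of batch A at 0.13 and 0.14.

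Nr4a3 encodes the member of the family also called Nor1, and its window held the NR4A peak with the highest level per kb. Peak_37015 (chr4:48042489-48043929) had 158 and 155 CPM in femur and 164 and 159 CPM in mandible. Both mandible libraries lay just above both femur libraries. Its level of 110.3 CPM per kb was at the 99.9th percentile of all peaks. Its log2 fold change was 0.04 (standard error 0.086, unadjusted p = 0.630 from edgeR), and the 95% interval ran from 0.909-fold to 1.17-fold. With TMM, library size alone and DESeq2 it was 0.29, 0.19 and 0.30, with unadjusted p-values of 0.0355, 0.0873 and 0.0519, and the peak passed the adjusted threshold in none of them.

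Peak_37016 (chr4:48044042-48045769), which was next to it and the widest of the window at 1728 bp, had 68.9 and 66.3 CPM in femur and 68.2 and 72.7 CPM in mandible. The groups overlapped. Its log2 fold change was 0.06 (standard error 0.116), with a 95% interval from 0.879-fold to 1.23-fold. The 4 other peaks of the window were 168 to 695 bp long with mean levels of 2.24 to 11.8 CPM, and their log2 fold changes ranged from -0.40 to 0.20. The lowest was that of Peak_37018 (chr4:48076753-48077029), with 4.04 and 4.54 CPM in femur and 3.86 and 2.62 CPM in mandible. Here both mandible libraries were below both femur libraries, and the unadjusted p was 0.185 from edgeR.

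Summed over the window, Nr4a3 had 245.8 ± 5.42 CPM (SD, n = 2) in femur and 252 ± 0.993 CPM (SD, n = 2) in mandible. The log2 difference of the sums was 0.04, with 0.02 within batch A and 0.06 within batch B. It was 0.02 without femur replicate 2, the library with the lowest sum. With TMM scaling the difference was 0.24, and the cause was not tested.

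Nr4a2 encodes Nurr1, and its window held 4 peaks. Peak_30144 (chr2:57013227-57014684), the highest both in CPM and per kb, had 83.9 and 80.5 CPM in femur and 69.7 and 75.7 CPM in mandible. Both mandible libraries lay below both femur libraries. At a log2 fold change of -0.18 (standard error 0.113, unadjusted p = 0.134 from edgeR), the 95% interval ran from 0.750-fold to 1.04-fold. With TMM the value was -0.0035 and with DESeq2 0.0060. Peak_30143 (chr2:57005802-57007917), the widest at 2116 bp, had 55.1 and 39.6 CPM in femur and 52.8 and 58.3 CPM in mandible. Femur replicate 2 was low here and the other 3 libraries lay together. The log2 fold change was 0.23 (standard error 0.153, unadjusted p = 0.146 from edgeR). It was 0.0079 without femur replicate 2 and 0.50 without femur replicate 1, and in that last fit the adjusted p was 0.0171 from edgeR.

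Peak_30142 (chr2:57004056-57005684), its close neighbour, had 41.4 and 36.6 CPM in femur and 37.9 and 44.3 CPM in mandible, and the groups overlapped. The small Peak_30141 (chr2:56992582-56992840) had 3.33 and 3.74 CPM in femur and 3.80 and 5.55 CPM in mandible, with both mandible libraries above both femur libraries by a narrow margin and an unadjusted p of 0.182 from edgeR. The sum over the window was 172 ± 16.5 CPM (SD, n = 2) in femur and 174 ± 13.8 CPM (SD, n = 2) in mandible. Its log2 difference was -0.16 within batch A and 0.20 within batch B, opposite directions in the 2 batches.

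**Figure D3:**
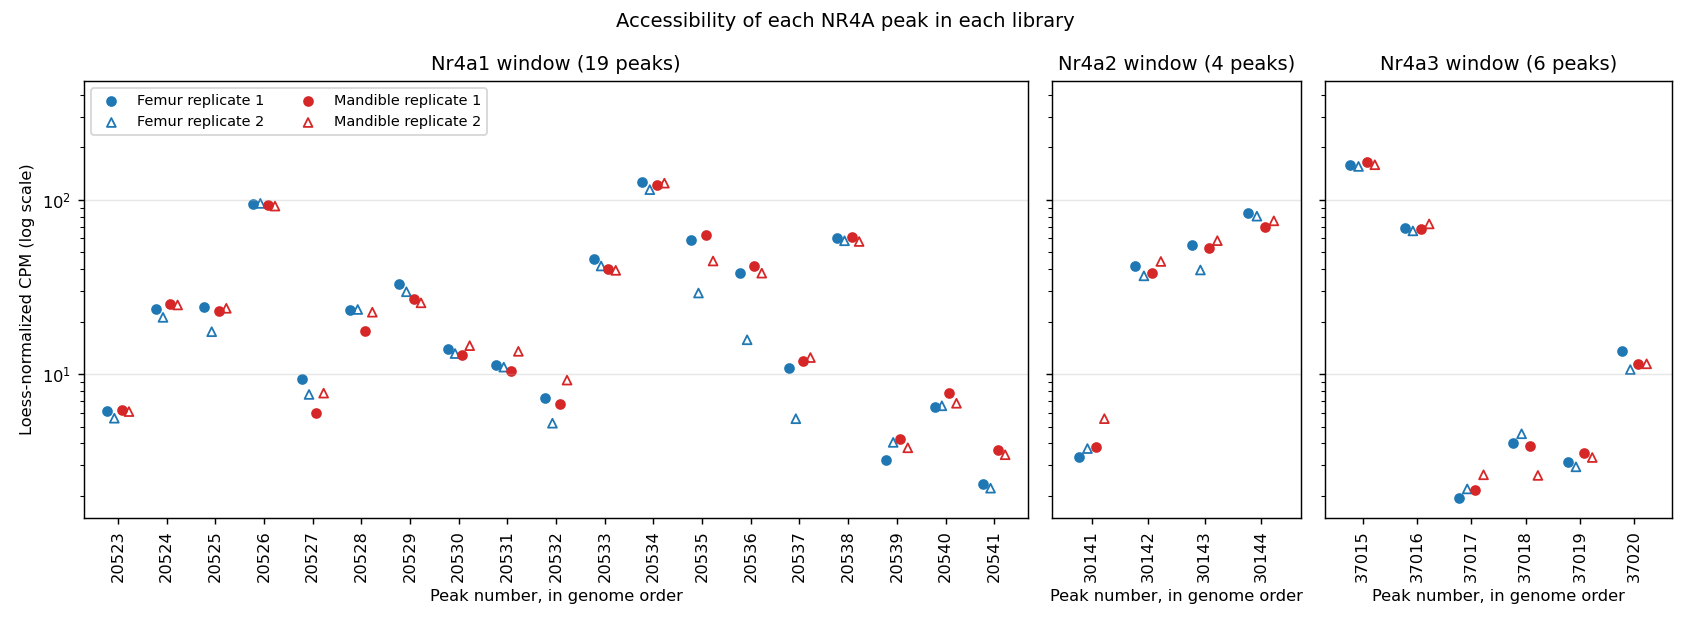
Loess-normalized CPM (vertical axis, log scale) of each peak in each of the 4 libraries, in genome order within the 3 windows; colour gives the site and the marker the replicate. The libraries lie close together at the high peaks, such as Peak_37015 at 155 to 164 CPM, and femur replicate 2 lies apart at Peak_20535, Peak_20536 and Peak_20537.

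Nr4a1 encodes Nur77, and its window held the most peaks of the 3. Peak_20534 (chr15:101163598-101166143), which had the most reads of the window after normalization, had 127 and 114 CPM in femur and 122 and 125 CPM in mandible. The groups overlapped. Its log2 fold change was 0.03 (standard error 0.097, unadjusted p = 0.726 from edgeR), with a 95% interval from 0.889-fold to 1.18-fold. Without femur replicate 2 it was -0.04, and with TMM and DESeq2 0.25 and 0.26. Per kb the highest peak of the window was Peak_20526 (chr15:101143784-101145040), at 74.7 CPM per kb, which had 94.8 and 95.3 CPM in femur and 93.5 and 92.0 CPM in mandible. Both mandible libraries were below both femur libraries, at a log2 fold change of -0.04 (95% interval 0.839-fold to 1.13-fold).

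Directly after Peak_20534, with a gap of 778 bp, came a broad stretch of low density. Peak_20535 (chr15:101166922-101172630), at 5709 bp the 33rd longest of all 57090 peaks, had 8.53 CPM per kb, the 0.247th percentile of all peaks. Its levels were 58.7 and 29.2 CPM in femur and 62.4 and 44.5 CPM in mandible. Both libraries of batch B were below both libraries of batch A, and the groups overlapped. Mandible exceeded femur by a log2 fold change of 0.29 (standard error 0.229, unadjusted p = 0.224 from edgeR), which was 0.09 within batch A and 0.61 within batch B.

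Peak_20536 (chr15:101172768-101175363), which followed after 137 bp and was 2596 bp long, had 38.0 and 15.7 CPM in femur and 41.5 and 37.9 CPM in mandible. Femur replicate 2 alone was low, and femur replicate 1 lay between the mandible libraries. The log2 fold change was 0.57 (standard error 0.263, unadjusted p = 0.0438, adjusted p = 0.999994 from edgeR). It was 0.13 within batch A and 1.27 within batch B. With the replicate block it was 0.70 (unadjusted p = 0.00032, adjusted p = 0.186 from edgeR). Peak_20537 (chr15:101181108-101181356), 249 bp long and 5744 bp further on, had 10.8 and 5.54 CPM in femur and 11.9 and 12.4 CPM in mandible. Femur replicate 2 was again low, and both mandible libraries were above both femur libraries. Its log2 fold change was 0.58 (standard error 0.277, unadjusted p = 0.0497 from edgeR).

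These 3 peaks were called, together with Peak_30143, when femur replicate 1 was left out, so that femur replicate 2 stood alone for the femur. In that fit 3.75% of all peaks were called higher in mandible. Their log2 fold changes were then 0.89, 1.34 and 1.14, with adjusted p-values of 1.63e-06, 9.54e-11 and 0.0020 from edgeR. Without femur replicate 2 they were -0.14, 0.05 and 0.16, and no member was called. In these fits the lone femur library is assumed to vary like the mandible libraries.

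**Figure D4:**
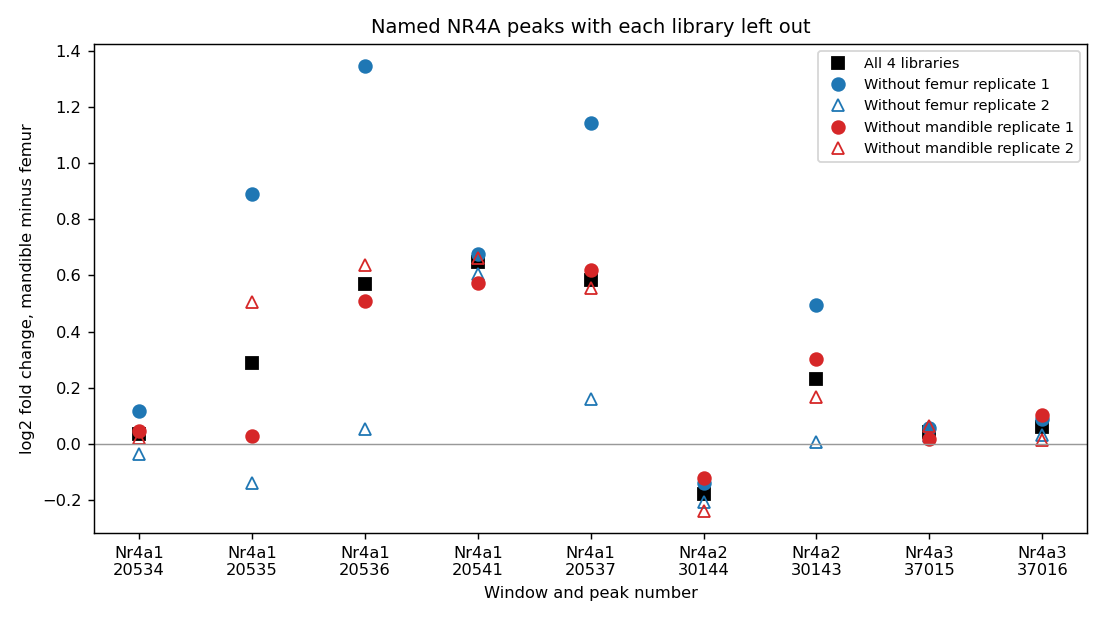
The log2 fold change of mandible minus femur (vertical axis) of the 9 named NR4A peaks (horizontal axis) with all 4 libraries and in 4 fits that each leave out 1 library. At Peak_20536 the value moves from 0.05 without femur replicate 2 to 1.34 without femur replicate 1, whereas at Peak_37015 all values lie between 0.02 and 0.06.

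Another member of the Nr4a1 window had a like difference between the sites in both batches, though it did not pass the adjusted test. Peak_20541 (chr15:101196457-101196689), a weak peak of 233 bp, had 2.34 and 2.22 CPM in femur and 3.69 and 3.45 CPM in mandible. Both mandible libraries lay above both femur libraries. The counts behind these values were 106 and 191 in femur and 110 and 86 in mandible. At 0.65 on the log2 scale, its fold change (standard error 0.305, unadjusted p = 0.0474 from edgeR) was the largest of the 29, and it was 0.66 within batch A and 0.64 within batch B. Over the 4 fits that each left out 1 library it stayed between 0.57 and 0.68. With the TMM, library size and DESeq2 scalings it was 0.51, 0.41 and 0.52. Its unadjusted p was above 0.05 in each of these (0.115, 0.223 and 0.159), with the replicate block (0.0839) and in every fit that left out a library (0.0610 to 0.206).

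The 14 other peaks of the Nr4a1 window had mean levels of 3.82 to 93.9 CPM. Their log2 fold changes ranged from -0.30 to 0.36, 9 above 0 and 5 below, with unadjusted p-values from 0.151 to 0.993 by edgeR. Peak_20529 (chr15:101151550-101152533) had the lowest p of these, with 32.9 and 29.7 CPM in femur and 27.0 and 25.6 CPM in mandible, so that both mandible libraries were below both femur libraries. Peak_20538 (chr15:101181550-101182545), separated from Peak_20537 by 193 bp, had 60.2 and 58.2 CPM in femur and 60.8 and 57.6 CPM in mandible, and femur replicate 2 was not low there. Summed over the window, Nr4a1 had 553 ± 64.6 CPM (SD, n = 2) in femur and 577 ± 9.02 CPM (SD, n = 2) in mandible. The log2 difference of the sums was 0.06, smaller than its spread between batches, with -0.04 within batch A and 0.17 within batch B, and it was -0.05 without femur replicate 2.

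Femur replicate 2 was the lowest of the 4 libraries in 15 of the 29 NR4A peaks (51.7%) and in 32.6% of all peaks. Relative to the mean of the other 3 libraries, it was lower by 0.90 on the log2 scale at Peak_20535, by 1.31 at Peak_20536 and by 1.08 at Peak_20537, which put these peaks at the 3.38th, 1.10th and 2.05th percentile of all peaks. The median deviation was -0.10 over the members and 0.011 over all peaks. Among the 1189 peaks longer than 2000 bp, the median was -0.02. In the 84 of these with under 20 CPM per kb, a limit set after Peak_20535 and Peak_20536 had been seen, it was -0.29, and in the 1105 with 20 CPM per kb or more it was -0.02. The part of this library's deviation in the differences at the Nr4a1 window beyond the values without it was not tested.

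**Figure D5:**
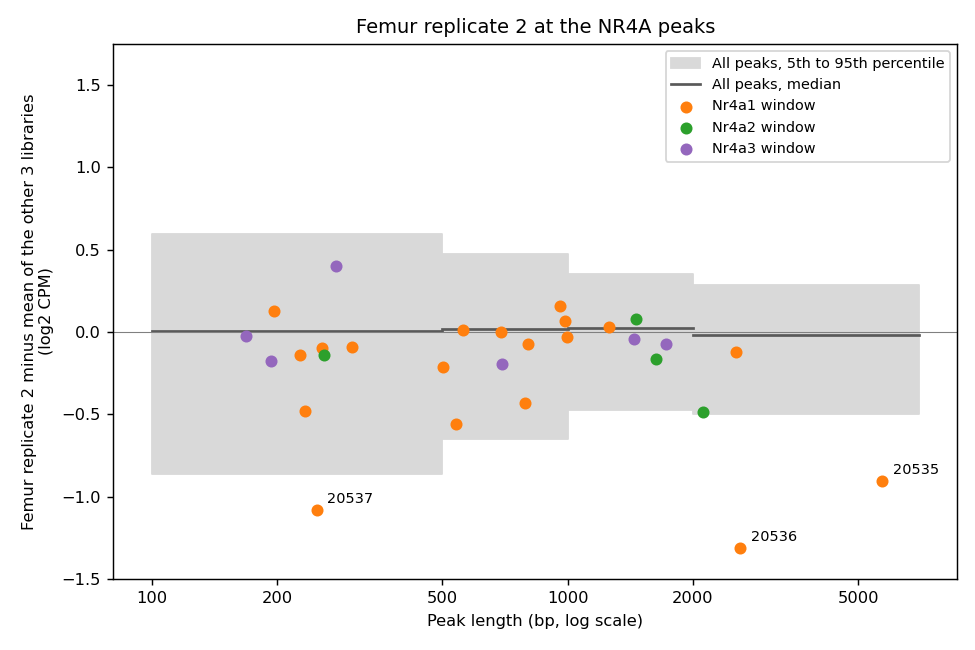
Deviation of femur replicate 2 from the mean of the other 3 libraries (vertical axis, log2 CPM) against peak length (horizontal axis, bp, log scale) for the 29 NR4A peaks, over the median and the 5th to 95th percentile of all peaks in 4 classes of length. Peak_20535, Peak_20536 and Peak_20537 lie below the band of their class, and the other 26 lie inside it.

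The profile of each window's highest peak over the 4 libraries was compared with all other peaks by the root mean square difference of centred log2 CPM. The closest peak to Peak_37015 of Nr4a3 was Peak_48545 (chr7:99029774-99031256) at 0.0027, followed by Peak_42366 (chr5:134212578-134213777) at 0.0032 and Peak_3548 (chr1:181058219-181058769) at 0.0039. Peak_20534 of Nr4a1 was closest to Peak_5501 (chr10:77441212-77443318) at 0.0043, Peak_1554 (chr1:93745769-93746197) at 0.0048 and Peak_11378 (chr12:11259704-11260165) at 0.0067. For Peak_30144 of Nr4a2 the closest were Peak_30176 (chr2:58171133-58171513) at 0.0020, Peak_33775 (chr3:32463108-32463644) at 0.0063 and Peak_22437 (chr16:92661045-92661465) at 0.0074. Profiles over 4 libraries are easily alike: 3.95%, 3.05% and 1.09% of all peaks lay within 0.05 of Peak_37015, Peak_20534 and Peak_30144. Between the NR4A peaks themselves, the difference was 0.050 for Peak_20534 and Peak_37015, 0.116 for Peak_20534 and Peak_30144, and 0.125 for Peak_30144 and Peak_37015.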

How the data were processed

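ATAC-seq was measured in 4 libraries. According to the methods and the submitters' processing notes, reads were trimmed with Trimmomatic and aligned to GRCm39 with Bowtie2, reads of mapping quality under 20 and duplicates were dropped, and Genrich called peaks on both replicates of a site together before bedtools merged the sites. The authors deposited raw counts of reads per merged peak from featureCounts 2.0.6, called with a fragment limit of 1000 bp and without counting pairs as 1 (file headers). Peaks were not called per library, so only counts were compared.

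In R 4.3.3, edgeR 4.0.16 with limma 3.58.1 fitted all 57090 peaks (filterByExpr removed 0) with loess offsets (pseudocount 0.5) and skeletal site as the term, the tools the methods name. P-values were adjusted by Benjamini-Hochberg and called under 0.05. Standard errors are the log2 fold change over the root of F, and 95% intervals use the fit's moderated degrees of freedom. The fit was tested on counts simulated with its own means and dispersions. Each peak had the same dispersion in every library, so a library that deviates as femur replicate 2 does was not simulated. The common dispersion was 0.0291 with 15.7 prior degrees of freedom.

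Labels tie same-numbered libraries to the same pooled mice, so the numbers pair them, and their deviations from site means correlated at -0.167 over peaks. Alternatives were TMM, library size alone, DESeq2 1.42.0, 2 filters, 2 thresholds, the replicate block and each library left out. Peaks given in full were, per window, the highest, the widest and up to 3 of lowest unadjusted p under 0.05, and others are named beside them after their values were seen. Planned tests on start-site peaks, gene lists and cell type markers needed a GRCm39 annotation and were not run. The members, lists, motifs and tests were chosen with earlier results of these data known.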

Additional observations from a re-analysis of the deposited data

How the results depend on the processing

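The count of 0 NR4A peaks lower in mandible was unchanged in every fit run, and that of 0 higher in mandible in every fit except 2: with each library left out in turn it ranged from 0 to 4 (4 without femur replicate 1), and a block with crossed pairs, added after seeing the data because the deviations of paired libraries correlated negatively, gave 1. The crossed pairs joined libraries of different batches, against the labels, and were chosen for that correlation, so no conclusion is drawn from this fit. Its 1 call was Peak_20536. With the replicate block by batch the count higher in mandible stayed at 0, and this block changed no other call among the members. At an unadjusted p under 0.05, 3 members were higher with loess and 3 with TMM, of which Peak_20536 alone was in both, 1 with library size alone and 0 with DESeq2. Higher over all peaks were 919, 1419, 669 and 919 in these fits. Over all peaks, 3 were higher and 1 lower in mandible with loess. These were 6 and 0 with TMM, 16 and 2 with library size alone, 15 and 0 with DESeq2, 47 and 10 with the replicate block, 184 and 23 with crossed pairs, 0 and 0 under an adjusted p of 0.01 and 9 and 2 under 0.1. Leaving out libraries gave 4 to 2141 higher and 1 to 547 lower. Library size alone moved the median over all peaks to -0.12 (log2), and 16 of the 29 members were above 0 and 23 above that median. The log2 difference of the Nr4a3 sum, 0.04 with loess, was 0.24 with TMM, 0.14 with library size alone and 0.25 with DESeq2 size factors. The sums of Nr4a1 and Nr4a2 moved by less than their spread between batches in every alternative. They fell below 0 without femur replicate 2, to -0.05 and -0.08, and that of Nr4a2 also without mandible replicate 2, to -0.06. Of 99 combinations of a named peak and an alternative, 91 kept direction and side of the threshold. Direction turned without femur replicate 2 for Peak_20534 and Peak_20535, which ranged from -0.037 to 0.116 and from -0.14 to 0.89 as libraries were left out, and for Peak_30144 (0.0060) with DESeq2. The causes were not tested. Sums around the gene bodies were not run, since no annotation of GRCm39 was used here, and keeping all peaks of at least 1 count repeats the same fit.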
